A study of Rattus norvegicus with 6 samples.

Results

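miR-221 and miR-222 are a pair of microRNAs (miRNAs) made from neighbouring genes. Their signals were compared in rat tendon-derived stem cells (rTDSCs) with and without mechanical loading. The array names matched were rno-miR-221 and rno-miR-222, which are 2 of the 677 miRNAs on the array and are read by 4 of its 1644 probes. The pair was chosen because both miRNAs were higher under loading in these same arrays. Their changes are therefore given as a description, with means, SD and standard errors, and no test is used as support for them. Where a count of miRNAs past a test includes a member, this is said and is not read as a result.

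The question of the array experiment was which miRNAs of rTDSCs differ after cyclic stretch. The cells came from patellar tendons of male Sprague Dawley rats, 8 weeks old, and their first colonies were mixed before passaging. Both groups were grown at passage 3 on flexible silicone plates coated with collagen type I and were collected after 7 days. On each day, the 3 loading samples were stretched along 1 axis for 8 h, with an elongation of 10% and a frequency of 0.5 Hz, and the 3 non-loading samples stayed static. The RNAs were read with a single dye on 6 Agilent rat miRNA arrays (v16.0) of 1 slide. The labels number the samples of a group but do not say that they came from separate animals or cultures, so the spread between them may be technical. In RNA from whole cultures, fewer cells of a type and less of an RNA per cell cannot be told apart.

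A miRNA is cut from a hairpin in a longer transcript, and 1 arm of the hairpin is loaded into Argonaute, where the seed near its 5′ end pairs with target mRNAs. Mir221 and Mir222 lie next to each other and are transcribed as 1 primary transcript in mammals. They are best known for repressing the Cdk inhibitor p27 (Cdkn1b), and also p57 (Cdkn1c) and the receptor Kit. AP-1 and NF-kB are known activators of the locus, and both miRNAs are abundant in mesenchymal cells, endothelium and vascular smooth muscle.

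In RefSeq's GRCr8 tables, both hairpins lay on the + strand of chromosome X, Mir222 at chrX:6022621-6022723 and Mir221 at chrX:6023182-6023290, with 458 bases between them. The mature sequences are shown because the shared seed and the differing 3′ parts are what the probes had to tell apart. The sequences of the probes were not at hand, so whether a probe of one member also read the other was not tested. The array names carry no arm and were matched to the 3p arm (chrX:6023246-6023268 for miR-221 and chrX:6022682-6022702 for miR-222). The seed, bases 2 to 8, is in capitals.
rno-miR-221-3p: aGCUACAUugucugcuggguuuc
rno-miR-222-3p: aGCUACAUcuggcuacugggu
The first 8 bases were identical. Aligned from the 5′ end without gaps, 11 of 21 positions were identical, and the longest run in common after the start had 6 bases, cugggu. miR-221-3p has 23 bases and miR-222-3p has 21, with 11 G or C bases in each. Among the 724 mature sequences of the table, these 2 alone carry this seed, so no other miRNA of the array was matched to this seed family.

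The other arms of the same hairpins differ in seed and are the miR-221* and miR-222* of the array.
rno-miR-221-5p: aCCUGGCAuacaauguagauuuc
rno-miR-222-5p: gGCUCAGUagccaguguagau
These other arms were not detected on any of the 6 arrays. Of the 120 spots of miR-221*, 2 were well above background, and of the 120 spots of miR-222*, 0 were. Both main arms were detected by the scanner software on every array.

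Signals are given as a percent of each array's own 75th percentile, taken over the 173 probes detected on all 6 arrays, and as the log2 of that ratio. The percentile itself lay between 262.6 and 362.2 intensity units, and the SD of negative-control spots between 1.80 and 2.28 units. The scanner software detected 140 to 186 miRNAs per array, and the 148 that it detected throughout 1 group or both were compared with limma (Benjamini-Hochberg adjustment over all 148). Of these, 0 had an adjusted p under 0.05, which is 0% of those tested. At an unadjusted p under 0.05, limma gave 14, or 9.46%, and the multiple comparison test of the study's methods gave 15, of which 2 remained after adjustment. These counts include the members, and because the members were picked on this contrast the counts are no test of them. The median log2 change over the 148 miRNAs was 0.06, with 99 positive and 49 negative.

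miR-221 was higher on each loading array than on each non-loading array. Its signal was 103.8%, 105.6% and 100.9% of the percentile on non-loading replicates 1, 2 and 3, and 147.3%, 140.7% and 137.0% on loading replicates 1, 2 and 3. On the log2 scale these were 0.05, 0.08 and 0.01 without loading and 0.56, 0.49 and 0.45 with loading. The lowest loading array lay 0.38 above the highest non-loading array, while the 3 arrays of a group spanned 0.07 without and 0.10 with loading. The mean rose from 103.4% ± 2.39 to 141.7% ± 5.22 (SD, n = 3 each), a log2 change of 0.45 (standard error 0.07 from the limma fit), or 1.37-fold.

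miR-222 also did not overlap between the groups, with a smaller gap. Its signal was 12.9%, 14.2% and 13.1% on non-loading replicates 1, 2 and 3, and 17.4%, 15.8% and 16.3% on loading replicates 1, 2 and 3. The log2 values were -2.96, -2.82 and -2.94 without loading and -2.52, -2.66 and -2.62 with loading. The lowest loading array was 0.15 above the highest non-loading array, slightly more than the span of either group (0.14 without and 0.15 with loading). The mean rose from 13.4% ± 0.718 to 16.5% ± 0.857 (SD, n = 3 each), a log2 change of 0.30 (standard error 0.08 from the limma fit), or 1.23-fold.

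**Figure D1:**
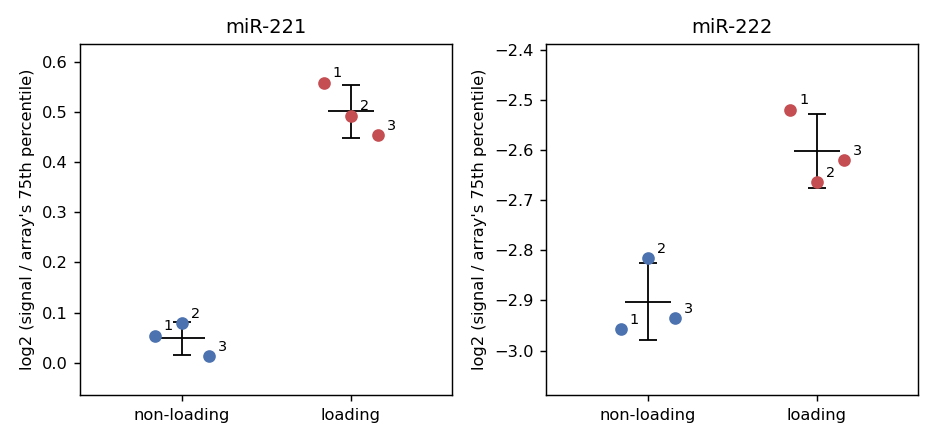
Log2 signal of miR-221 and miR-222 relative to the array's 75th percentile on each array, with numbers naming the replicates, long bars the group mean and whiskers the SD (n = 3). Both panels span the same log2 range, and the gap between the groups is 0.38 for miR-221 and 0.15 for miR-222.

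Groups that do not overlap, with loading higher, were found for 19 of the 148 tested miRNAs (12.8%), the members included, and with loading lower for 4 (2.7%). The members were picked from this contrast, so nothing is read from their place in these counts. Of the tested miRNAs, 4 had a larger positive change than miR-221 and 14 a larger one than miR-222. Relative to the median change of all tested miRNAs, miR-221 was 0.39 and miR-222 0.24 higher under loading.

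The difference between the members can be followed within each array, where the scaling cancels. The log2 ratio of miR-221 to miR-222, set to an average of 0 over the non-loading arrays, was 0.06, -0.06 and -0.0033 on non-loading replicates 1, 2 and 3. It was 0.13, 0.21 and 0.12 on loading replicates 1, 2 and 3, so the groups did not overlap. miR-221 changed by 0.15 more than miR-222 (standard error 0.04, SD 0.06 without and 0.05 with loading, n = 3 each), a 1.11-fold shift of the ratio. A ratio of this kind describes unequal change of the 2 signals and not how much of either miRNA was present. Background does not cancel in it, and the difference ran from -0.19 to 0.57 over 16 alternatives of processing and fit. In place of the scaled values, the summed intensities of the probes gave 285.6, 321.2 and 365.4 units for miR-221 without loading and 470.3, 369.5 and 444.5 with loading. Unscaled, miR-222 read 35.4, 43.2 and 47.4 units without loading and 55.7, 41.4 and 52.8 with loading. The groups of miR-222 overlapped before scaling, through loading replicate 2, and those of miR-221 did not.

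Each miRNA was read by 2 probes of 10 spots per array. For miR-221, probe A_26_P00002590 read 67.3%, 70.8% and 68.3% of the percentile without loading and 97.7%, 95.0% and 91.98% with loading. Its log2 change was 0.46 (standard error 0.03), and all 60 spots were well above background. The other probe of miR-221, A_26_P00001505, read 36.5%, 34.8% and 32.6% without loading and 49.6%, 45.8% and 45.0% with loading. It changed by 0.44 (standard error 0.06), again with 60 of 60 spots well above background. The 2 probes of miR-221 thus differed in change by 0.03, below either standard error.

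Of the probes of miR-222, A_26_P00001509 read 7.97%, 8.70% and 8.02% of the percentile without loading and 10.6%, 10.1% and 9.64% with loading. The change was 0.30 (standard error 0.06), with 59 of 60 spots well above background. Probe A_26_P00001508 read 4.90%, 5.51% and 5.06% without loading and 6.80%, 5.71% and 6.63% with loading. The change was 0.30 (standard error 0.09), with 51 of 60 spots well above background. This last probe had the narrowest gap between the groups, 0.05 on the log2 scale, which rested on loading replicate 2. On that array 5 of its 10 spots were well above background and the coefficient of variation among its spots was 39.9%. Over all arrays, the coefficient of variation among spots was 5.05% to 13.6% for the probes of miR-221 and 7.79% to 39.9% for those of miR-222.

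**Figure D2:**
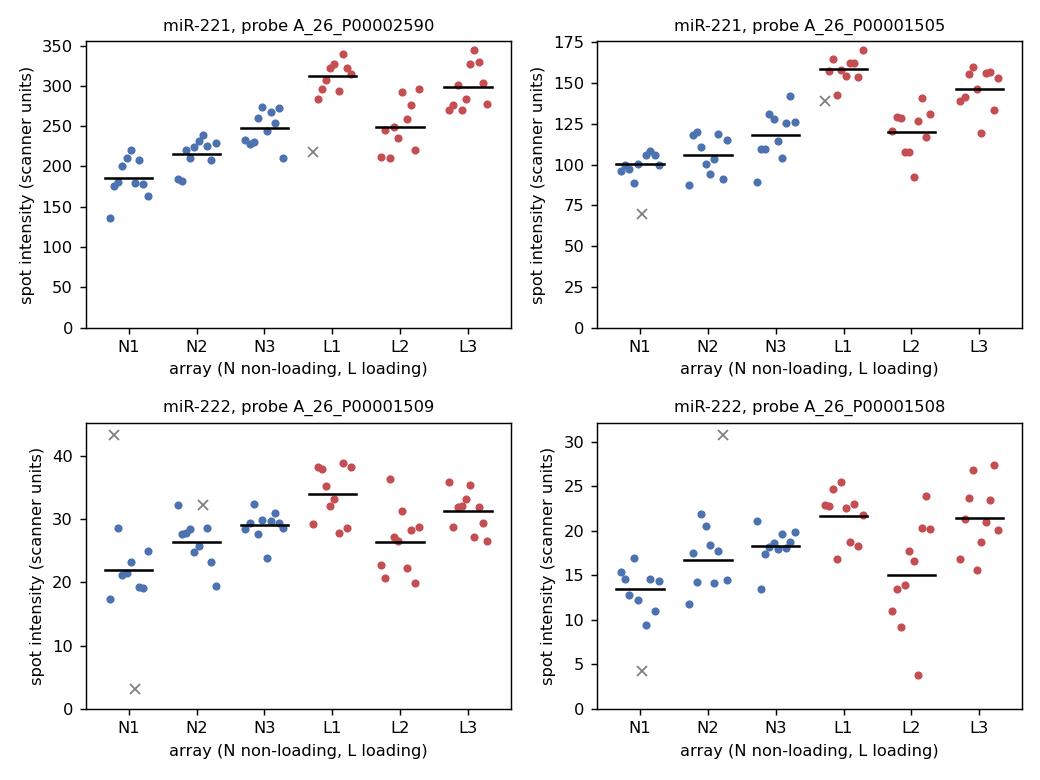
Background-subtracted intensity of every spot of the 4 probes on each array (N, non-loading and L, loading, with replicate number), before scaling between arrays. Points are spots, crosses are spots marked as outliers by the scanner software (8 of 240) and bars are the mean of the other spots, and the wide scatter of A_26_P00001508 on L2 (39.9% coefficient of variation) can be seen.

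The 4 probes gave the same order of the groups, and the lowest loading array exceeded the highest non-loading array for 4 of 4 probes. The value of a member is the sum of its 2 probes, and the members were picked for being higher. This order was therefore largely fixed beforehand, and its share over all probes of the array was not counted. Loading replicate 1 was the highest loading array for all 4, and non-loading replicate 2 the highest non-loading array for 3. The ratio of the 2 probes of a miRNA varied over the 6 arrays with an SD of 0.07 for miR-221 and 0.09 for miR-222, and its groups overlapped for both. For comparison, among the 62 other tested miRNAs with at least 2 probes detected on all arrays, the changes of the probes differed by a median of 0.03 (range 7.44e-05 to 0.40). Of these, 35 differed by more than the probes of miR-221 and 54 by more than those of miR-222. No spot of the members was saturated.

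**Figure D3:**
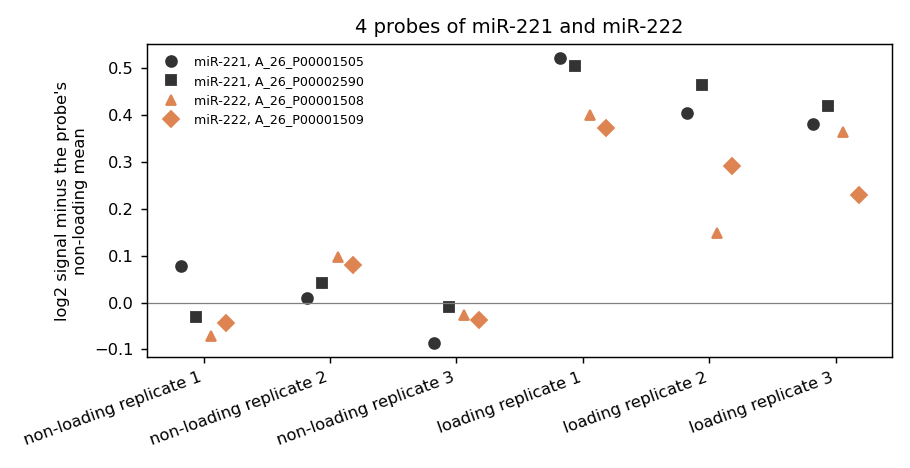
Log2 signal of each of the 4 probes on each array, minus the mean of that probe over the non-loading arrays. All 4 probes are higher on the loading arrays, and the lowest loading value is that of A_26_P00001508 on loading replicate 2, at 0.15.

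The place of an array on the slide was not balanced between the groups. The first row held all 3 non-loading arrays and loading replicate 1, and the second row loading replicates 2 and 3. Within the first row, loading replicate 1 was 0.51 above the mean of the non-loading arrays for miR-221 and 0.38 above it for miR-222. Loading replicates 2 and 3, in the other row, were on average 0.09 lower than loading replicate 1 for miR-221 and 0.12 lower for miR-222. In the first column lay non-loading replicate 1 and loading replicate 2, and in the next non-loading replicate 2 and loading replicate 3. Within these columns the loading array was 0.44 and 0.38 higher for miR-221, and 0.29 and 0.20 higher for miR-222. Since the members were picked for being higher and their groups do not overlap, the sign of these differences was fixed beforehand, and the part of slide position in their size was not tested.

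The changes of both miRNAs moved with the background correction and the scaling. Under 13 other ways of processing the same intensities, the groups did not overlap in 10 for miR-221 and in 8 for miR-222, and 2 of the 13, without the floor and from the deposited series matrix, left the values of both as they were. With normexp background correction, the change was 0.12 for miR-221 and -0.44 for miR-222, the groups overlapped for both, and the median of all tested miRNAs was -0.45. In that setting the arrays with single spots of very high background, namely non-loading replicates 1 and 3 and loading replicate 2 (highest spot background 7260.5, 109535 and 27316 units), had medians of 0.12, 0.87 and 0.73. The other 3 arrays, whose highest background was 25 to 27 units, had medians between -1.05 and -1.03. The background of the members' own spots was at most 23 units on any array. With outlying background values replaced, normexp gave 0.35 for miR-221, without overlap, and 0.09 for miR-222, with overlap. Normexp was run with an offset of 50 units, more than the mean intensity of either probe of miR-222 on any array. An added constant makes log2 changes smaller, and more so for lower signals.

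Quantile normalization of the probes left both groups apart, at 0.39 for miR-221 and 0.29 for miR-222. Applied to the miRNA values, it lowered the change of miR-221 to 0.12 with overlap, and left miR-222 at 0.30. miR-221 held rank 32 among the tested miRNAs on 5 arrays and rank 29 on loading replicate 1, so this step gave it the same value on 5 arrays. miR-222 moved from ranks 95, 91 and 87 without loading to 77, 86 and 83 with loading. With the percentile taken over all probes, both groups overlapped, at 0.30 for miR-221 and 0.15 for miR-222, where the median of all tested miRNAs was -0.09. This percentile was only 1.43 to 2.88 intensity units, near the SD of negative-control spots (1.80 to 2.28 units). Scaling by it thus divides each array by a value of the size of its background noise.

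**Figure D4:**
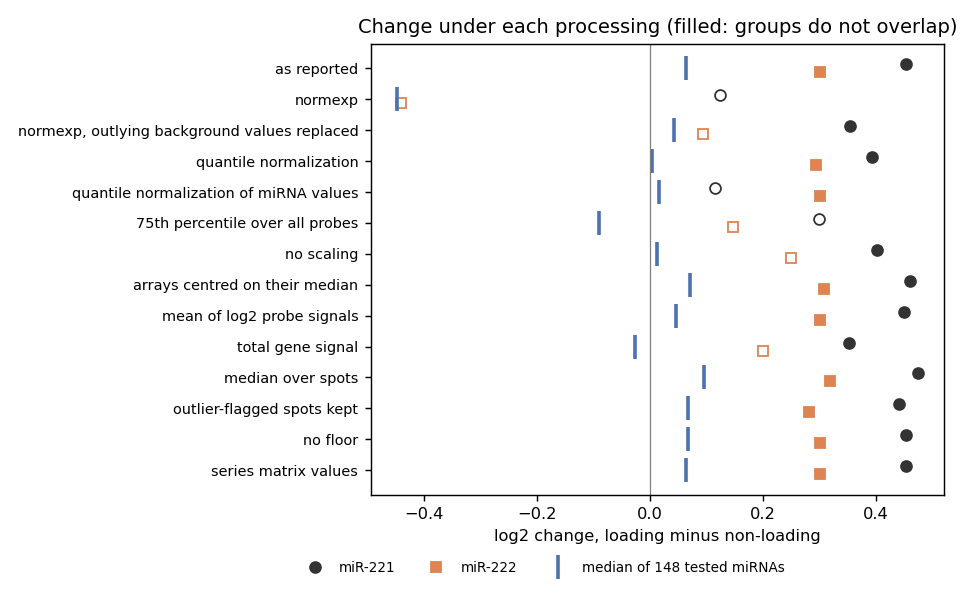
Log2 change of miR-221 and miR-222 under the processing reported and 13 others, with the median change of the 148 tested miRNAs as a bar. Filled symbols mark groups that do not overlap and open symbols groups that do, and miR-222 is below 0 with normexp alone (-0.44).

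By their profile over the 6 arrays, each centred on its own mean, miR-132 was the closest to miR-221, with a root mean square difference of 0.03 on the log2 scale. miR-222 came next at 0.09, then miR-322 at 0.13, miR-455 at 0.13 and miR-872 at 0.13, where the median over all tested miRNAs was 0.25. miR-132 is a CREB-induced miRNA, and its log2 change was 0.51 (standard error 0.07, limma adjusted p = 0.0551). Over 19 alternatives that adjusted p ran from 0.0114 to 0.996 and the change of miR-132 from -0.04 to 0.56. The profiles closest to miR-222 were those of miR-322 at 0.06, miR-99b at 0.07, miR-31 at 0.07, miR-455 at 0.07 and miR-24 at 0.09, against a median of 0.21. miR-221 was the sixth closest to miR-222, and miR-322 and miR-455 were among the 5 closest for both members. The members were picked on the difference between the groups, which makes up most of their profiles. Likeness depends both on the changes under loading and on the scatter within groups. For miR-221, miR-210 with a change of 0.45 came at place 8, behind miR-322 with 0.20 at place 3. Shared control was not tested.

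Neighbouring miRNA genes offered a scale for the difference between the members. All but 15 of the 148 tested miRNAs were matched to a gene, and 67 other pairs had genes at most 10 kb apart on the same strand, some sharing a miRNA. The changes within these pairs differed by a median of 0.09, against 0.15 for miR-221 and miR-222, and 22 of the 67 pairs differed by more. The SD of the log2 ratio within groups was 0.05 for miR-221 and miR-222. Over the other pairs it ran from 0.05 (miR-188 and miR-532-5p) to 0.72 (miR-125a-3p and miR-99b), so the differences were not equally precise. The smallest difference was 0.000753, for miR-125a-5p and miR-99b, and the largest was 0.75, for miR-154 and miR-410. In 46 of 67 pairs both changes had the same sign. In the other pairs both miRNAs were without overlap and higher under loading in 2 cases, which were miR-23b with miR-24 and miR-24 with miR-27a, named here after their values were seen.

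**Figure D5:**
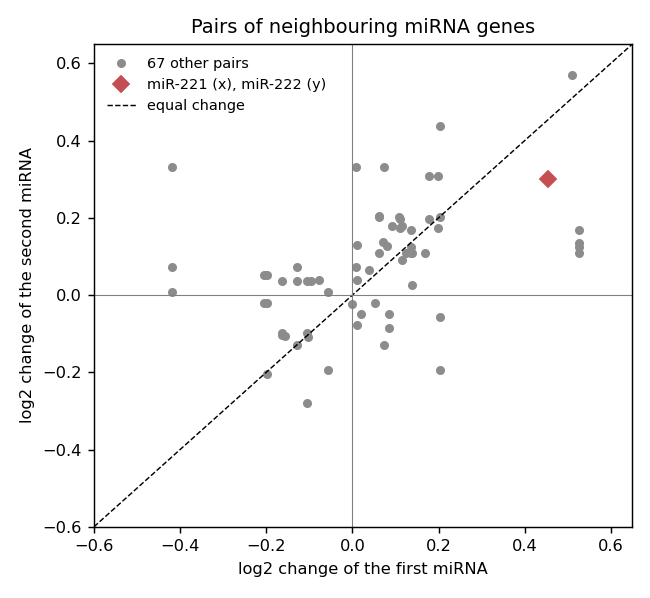
Log2 change (loading minus non-loading) of the 2 miRNAs of each pair of tested miRNAs whose genes lie at most 10 kb apart on 1 strand, with the dashed line marking equal change. miR-221 and miR-222, at 0.45 and 0.30, lie below the line, among 67 other pairs that fall on both sides of it.

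Other miRNAs known to act on Cdk inhibitors (p21, p27 or p57) were taken from a list of 11, mostly of the miR-17, miR-106b and miR-25 families. Of these, 9 were tested and 2, miR-32 and miR-92b, were detected on no array. None of these passed the adjusted limma test (0 of 9). All 9 tested had a positive change, where 99 of all 148 did, with a median of 0.14 against 0.06. The genes of several lie close together, such as those of miR-106b, miR-93 and miR-25, so the 9 are not separate readings. The number of positive changes depended on the processing, with 1 of 9 under normexp, 4 of 9 with the all-probe percentile, and 7 of 9 with quantile normalization of probes, with the column block or without non-loading replicate 3. miR-24 had an unadjusted p under 0.05 (limma, 14 of all 148, or 9.46%), with a change of 0.20 (standard error 0.08, limma adjusted p = 0.486). The highest change was that of miR-17-5p, a member of the proliferation-linked miR-17-92 cluster, at 0.52 (standard error 0.32, limma adjusted p = 0.724). The signal of miR-17-5p was low, with a mean log2 of -5.13 without and -4.60 with loading. The lowest change was that of miR-25, at 0.09 (limma adjusted p = 0.724). The median of the list fell below 0 with normexp (-0.36) and with the all-probe percentile (-0.02), together with that of all miRNAs.

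miRNAs known to restrain the cell cycle (8 of the let-7 and miR-98 family, miR-34a and 4 of the miR-15 and miR-16 family) had changes on both sides of 0. Of 13 tested, 6 were positive and 7 negative, where 99 of all 148 tested were positive. The median was -0.08, against 0.06 over all tested, and 0 of the 13 passed the adjusted limma test. The positive changes numbered from 0 of 13 with the all-probe percentile to 9 of 13 with normexp. The highest was miR-15b at 0.08 (limma adjusted p = 0.734) and the lowest let-7b at -0.16 (limma adjusted p = 0.724). The median turned positive with normexp (0.11) and with normexp after replacement of outlying backgrounds (0.0019).

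Of 6 miRNAs known to be induced by AP-1, NF-kB or CREB, 5 were tested, and miR-155 was not found among the names of the array. The changes were positive for 3 and negative for 2, where 99 of all 148 tested were positive. On this list 0 of 5 passed the adjusted limma test, and the median change was 0.15, against 0.06 over all tested. miR-132 had an unadjusted p under 0.05 (limma, 14 of all 148, or 9.46%), with a change of 0.51 (standard error 0.07, limma adjusted p = 0.0551) and without overlap. miR-212, which shares a transcript with miR-132, had the highest change, at 0.57 (standard error 0.37, limma adjusted p = 0.724), with overlap. The lowest was that of miR-146a, an NF-kB target, at -0.09 (limma adjusted p = 0.869). The median was negative with normexp (-0.27) and with the all-probe percentile (-0.0015).

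Besides the members, 104 miRNAs of the array were matched to genes on chromosome X, of which 77 were detected on no array and 19 were tested. For 15 of the 19, every matched gene was on chromosome X. Of the 19, 13 had a positive and 6 a negative change, where 99 of all 148 tested were positive. The median was 0.08, against 0.06 over all tested, and 0 of the 19 passed the adjusted limma test. miR-322 had an unadjusted p under 0.05 (limma, 14 of all 148, or 9.46%), with a change of 0.20 (standard error 0.08, limma adjusted p = 0.486). The extremes were miR-17-5p at 0.52, which also has a gene on another chromosome, and miR-743a at -0.24 (standard error 0.65, limma adjusted p = 0.936). The median was negative under 4 of 16 alternatives, with -0.53 under normexp, -0.08 with the all-probe percentile, and values of -0.0031 and about 0 under the quantile settings.

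The identity of the cells was checked with marker miRNAs. Of 6 mesenchymal markers, 5 were tested, and their summed signal was 10786% to 11756% of the percentile without loading and 11641% to 12031% with loading. For miR-145, detection was limited to 1 array without and 2 arrays with loading. Markers of striated muscle (0 of 4), epithelium (0 of 7), neural cells (0 of 2) and liver (0 of 1) were not detected on any array. Since miR-221 and miR-222 are also abundant in endothelium, its marker miR-126 is given beside them, at 2.77% to 4.91% without and 3.91% to 5.36% with loading, with miR-126* detected on no array. Of 5 blood cell markers, miR-223 was found on 2 arrays without and 3 with loading, at up to 8.07% and 8.75%, and the other 4 on no array. The log2 change was 0.25 for miR-126 (standard error 0.25, limma adjusted p = 0.724) and 0.40 for miR-223 (standard error 0.22, limma adjusted p = 0.709), and the groups overlapped for both. The part of such cells in the changes of miR-221 and miR-222 was not tested.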

How the data were processed

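RNA from 3 non-loading and 3 loading rTDSC samples was measured on 1-colour arrays. The deposited scanner files, written by Agilent Feature Extraction (10.7.3.1 per the file headers), give for every spot an intensity from which the software had subtracted background, with no scaling between arrays. The deposited series matrix held the same intensities (largest difference 0), with column medians between -2.03 and 0.440, and without log, centring or ratio. From the deposited intensity, control and outlier-flagged spots (2.93% to 4.17% per array) were left out, and 13540 spots were averaged to 1644 probes. Signals were scaled to the 75th percentile of their own array, over probes with at least 50% of spots well above background on all arrays. Probes of a miRNA were summed, a floor was set at the 1st percentile of detected miRNAs (1.87% of the scaling percentile) before log2 transformation. Since the probes for 1 miRNA can differ, those of the members are also given singly.

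Groups follow the sample labels. The 148 miRNAs detected throughout 1 group or both were compared in R 4.3.3 with limma 3.58.1 (linear model with moderated variance, lmFit then eBayes). Benjamini-Hochberg adjustment ran over all of them, with a threshold of 0.05. The limma step was tested on simulated data. Standard errors of probes and ratios are from the group SDs. The number of arrays limits the precision. All columns of per-sample values were tied to a sample (0 left over).

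The members, lists and tests were chosen with earlier results of these data known. The text names both members, the 5 closest profiles of each, the highest and lowest change of each list (or those past the adjusted test), the smallest and largest difference among pairs, and a few others with the reason given. Sequences and positions are from RefSeq (GRCr8). Array names without an arm were matched to the 3p and then the 5p arm, and 593 of 677 names had a gene. The arrays' own annotation is of an older build, and its coordinates were not used. Alternatives concerned background correction, scaling, summary of probes and spots, floor, detection filter, outlier-flagged spots, test, row on the slide, replicate number, and leaving out each array. Normexp (offset 50) ran on median signals, for want of a mean signal in the files used here. Replacement of backgrounds over 3 MADs from the median, quantile normalization of miRNA values and a block for the column on the slide were added after the data had been seen. Replicate numbers were the same in both groups, but the labels do not say that they pair the samples, and the main fit did not pair them. Arrays with the same number deviated from the mean of their group with correlations of -0.69, -0.47 and 0.11. With 3 arrays per group, these cannot settle whether the samples were paired.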

Additional observations from a re-analysis of the deposited data

How the results depend on the processing

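miR-221 was higher under loading in all 16 alternatives other than leaving out arrays, and miR-222 in 15 of them. Among the 16, leaving out the floor, the series matrix values and the replicate block returned the same changes for both, so they add nothing to these counts. The change of miR-221 was 0.12 with normexp, 0.35 with normexp after replacement of outlying backgrounds, 0.39 with quantile normalization, 0.12 with quantile normalization of miRNA values, 0.30 with the all-probe percentile, 0.40 without scaling, 0.35 from the total gene signal, and 0.51 and 0.41 with the row or column on the slide as a block. That of miR-222 was -0.44 with normexp, 0.093 after replacement, 0.15 with the all-probe percentile, 0.20 from the total gene signal and 0.38 with the row block. The difference between the members was 0.57 with normexp, 0.26 after replacement and -0.19 with quantile normalization of miRNA values, where miR-221 took the same value on 5 arrays. Elsewhere it moved by less than the spread between arrays.

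By probe, normexp gave 0.21 for A_26_P00002590, 0.0030 for A_26_P00001505, -0.41 for A_26_P00001509 and -0.48 for A_26_P00001508. After replacement of outlying backgrounds these were 0.38, 0.31, 0.11 and 0.072, and with the all-probe percentile 0.31, 0.28, 0.14 and 0.15. A_26_P00002590 was at 0.41 without scaling, and A_26_P00001505 at 0.31 with quantile normalization.

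With each array left out in turn, the change was 0.42 to 0.48 for miR-221 and 0.26 to 0.34 for miR-222, and the difference 0.12 to 0.18. By probe it was 0.44 to 0.48 for A_26_P00002590, 0.39 to 0.47 for A_26_P00001505, 0.26 to 0.34 for A_26_P00001509 and 0.26 to 0.38 for A_26_P00001508. The median difference within neighbouring pairs was 0.0978 to 0.141 then, and 0.0405 to 0.172 over the other alternatives. The number of miRNAs past the adjusted limma test was 0 to 0, and so was that on the lists.

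That number was 2 under 6 alternatives. One was miR-132, and the other was miR-221, which was picked on this contrast, so that its place in the count is no test of it. The alternatives were quantile normalization, the mean of log2 probe signals, outlier-flagged spots kept, no floor, only miRNAs detected on all 6 arrays and the methods' test. On the lists it was then 1, miR-132. With the replicate block, the changes were 0.45 for miR-221 and 0.30 for miR-222 and the number was 0 (limma, 6 at an unadjusted p under 0.05), and the block changed no call.

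miR-222 was nearer to background, with 110 of its 120 spots well above it, against 120 of 120 for miR-221. With normexp, the offset of 50 units exceeded the mean intensity of either probe of miR-222 on every array. Such an offset makes log2 changes smaller, and more so for lower signals. Its part in the 0.093 of miR-222 and the difference of 0.26 after replacement was not tested. Nor was the cause tested in the other alternatives in which the groups of miR-222 overlapped.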
